A study of Mus musculus with 5 samples.

Results

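The genes described here are the 3 ligands of the transforming growth factor beta (TGF-β) family (Tgfb1, Tgfb2 and Tgfb3), their receptors (Tgfbr1, Tgfbr2 and Tgfbr3), a pair of latent TGF-β binding proteins (Ltbp1 and Ltbp4) and the feedback inhibitor Smad7. They were chosen by name as a pathway and not by their values, and are 9 of the 31053 genes counted. Single-cell RNA sequencing of mouse lung cells was used, with viable cells sorted as CD45- and Ter119-, that is, without most leukocytes and red cells. The study examined lungs in which β1 integrin (Itgb1), an adhesion receptor subunit, was deleted in alveolar type 2 (AT2) epithelial cells, the surfactant-producing progenitors of the alveolus, and asked how such lungs repair after injury.

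The 5 conditions were sequenced as 5 libraries: Itgb1 fl/fl after lipopolysaccharide (LPS) at day 7, Itgb1 iKO after LPS at day 7, Itgb1 iKO after phosphate-buffered saline (PBS) at day 7, Itgb1 fl/fl after LPS at day 21 and Itgb1 iKO after LPS at day 21. The iKO mice carried the floxed Itgb1 alleles with a doxycycline-inducible Cre driven through the surfactant protein C promoter, so that the deletion was aimed at AT2 cells only, and the fl/fl mice carried the floxed alleles without recombination. All were adult C57BL/6 animals, and LPS, a bacterial cell wall component, was given once into the trachea. EPCAM-positive epithelial cells were added to both day 21 libraries. Each library pooled several mice and held 3 hashtag antibodies in use, and each hashtag was taken as 1 mouse and as the replicate. The labels do not tie hashtags to animals, so that a hashtag stands for 1 mouse is an assumption. All mice of a condition share a library, so library and condition cannot be told apart. No library of Itgb1 fl/fl mice after PBS was analysed here, so LPS was compared with PBS only in Itgb1 iKO lungs.

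TGF-β ligands are secreted in a latent form, wrapped in their own propeptide, which LTBPs tether to the extracellular matrix and which integrins and proteases release. Active ligand binds Tgfbr2, the type II receptor, which phosphorylates the type I receptor kinase Tgfbr1, while Tgfbr3 (betaglycan) is a co-receptor that presents ligand, Tgfb2 above all. The receptors activate SMAD transcription factors, which induce Smad7, an inhibitory SMAD that blocks the receptor complex in turn. In the lung the pathway is known for driving fibroblasts to make matrix and for restraining epithelial growth.

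Cells passing the filters numbered 8330, 7240, 8671, 2224 and 3035 for Itgb1 fl/fl LPS day 7, Itgb1 iKO LPS day 7, Itgb1 iKO PBS day 7, Itgb1 fl/fl LPS day 21 and Itgb1 iKO LPS day 21, with 8360954 to 29128331 unique molecular identifiers (UMIs) per library and a median of 2219 to 5330 UMIs per cell. The 3 classes were set by a few genes, AT2 by Sftpc with Epcam, endothelial by Cdh5 and Pecam1, and mesenchymal by Col1a2, and between 75.3% and 93.5% of the cells fell in a class. Markers that had not set the classes summed to 61107 to 71480 UMIs in 1000000 (counts per 1000000, CPM) in AT2 cells, 14482 to 18212 CPM in endothelial cells and 21695 to 38925 CPM in mesenchymal cells. Each class also held UMIs of the others, and the deposited counts had no correction for free RNA. The mesenchymal markers in endothelial cells stood at 0.328% to 0.990% of their mesenchymal level, and the AT2 markers there at 0.432% to 5.70% of their AT2 level. Itgb1 in AT2 cells was 279 and 351 CPM in the fl/fl libraries and 117 to 167 CPM in the iKO libraries, against 741 to 1052 CPM in endothelial cells. Xist and Y-linked UMIs put all 3 day 7 fl/fl mice as female (291 to 317 CPM of Xist) and all 3 day 7 iKO LPS mice as male (0 to 0.299 CPM), so genotype and sex cannot be told apart at day 7. The PBS library held 1 mouse with Xist at 199 CPM and 2 with Y-linked genes at 136 and 147 CPM. Mouse 1 of the day 21 fl/fl library carried both, at 92.5 and 83.2 CPM, and whether its hashtag holds 1 animal was not tested. Mice 2 and 3 of that library carried Xist at 247 and 212 CPM. In the day 21 iKO library mouse 1 carried Xist at 145 CPM, and mice 2 and 3 Y-linked genes at 77.2 and 106 CPM. Genotype and sex were thus not balanced at day 21 either, and the part of sex in the genotype differences was not tested. Cell barcodes shared between libraries numbered 24 to 164 per pair.

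The ligands were divided among the classes. Tgfb1, the main ligand of adult tissue, lies on chromosome 7 (25687002 to 25705077, plus strand, GRCm38). Its endothelial level ran from 200.2 CPM over a median of 277 to 317 CPM in 15 mice, its mesenchymal level from 12.1 over 75.0 to 250 CPM in 11 mice, and its AT2 level from 6.18 over 28.9 to 65.2 CPM in 12 mice. Every endothelial mouse lay above every AT2 mouse, whereas the endothelial and mesenchymal ranges met. Tgfb2 (chromosome 1, 186622792 to 186705989, minus strand) was at 24.7, 69.2 and 99.2 CPM (lowest, median and highest) in mesenchymal cells, 0, 7.45 and 21.6 CPM in endothelial cells and 0, 0.370 and 3.87 CPM in AT2 cells. In the day 7 fl/fl library no Tgfb2 UMI was counted in 119 AT2 cells, which allows a level of up to 2.65 CPM, that of 3 UMIs in those cells. Tgfb3 (chromosome 12, 86056745 to 86079041, minus strand) was at 50.1, 112 and 138 CPM in mesenchymal cells, at 0, 14 and 20.5 CPM in AT2 cells and at 0, 2.79 and 7.75 CPM in endothelial cells. All mesenchymal mice lay above all mice of the other classes for both Tgfb2 and Tgfb3. The AT2 level of Tgfb3 was 12.3, 14.5, 10.9 and 17.1 CPM in the LPS libraries of Itgb1 fl/fl day 7, Itgb1 iKO day 7, Itgb1 fl/fl day 21 and Itgb1 iKO day 21, while mesenchymal RNA at the share of its markers seen in those AT2 cells would bring 0.433, 0.621, 0.408 and 0.326 CPM. In the PBS library 1 Tgfb3 UMI in 26 AT2 cells gave 3.89 CPM (exact 95% Poisson interval 0.0986 to 21.7), against 0.322 CPM carried.

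The receptors were more widely spread. Tgfbr1 (chromosome 4, 47353222 to 47414931, plus strand), the signalling kinase, was at 19.0, 29.5 and 55.6 CPM in AT2 cells, 21.3, 32.3 and 57.9 CPM in endothelial cells and 12.1, 41.0 and 156 CPM in mesenchymal cells, and the 3 ranges overlapped. Tgfbr2 (chromosome 9, 116084293 to 116175360, minus strand), which binds the ligand, was at 37.7, 65.0 and 92.3 CPM in AT2 cells, 71.6, 94.2 and 123 CPM in endothelial cells and 128, 337 and 471 CPM in mesenchymal cells. The lowest mesenchymal mouse thus stood above the highest endothelial mouse for Tgfbr2, while AT2 and endothelial mice overlapped. Tgfbr3 (chromosome 5, 107106570 to 107289629, minus strand) was nearly without UMIs in AT2 cells at 0, 3.52 and 7.14 CPM, and was at 67.3, 92.0 and 180 CPM in endothelial and 96.3, 194 and 467 CPM in mesenchymal cells.

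The binding proteins were highest in the mesenchyme and nearly without UMIs in AT2 cells. Ltbp4 (chromosome 7, 27305136 to 27337692, minus strand), which also takes part in elastic fibre assembly, was at 561, 836 and 1248 CPM in mesenchymal cells, 21.5, 66.9 and 157 CPM in endothelial cells and 0, 1.95 and 14.8 CPM in AT2 cells, with no overlap between classes. Ltbp1 (chromosome 17, 75005568 to 75392512, plus strand) was at 73.9, 134 and 315 CPM in mesenchymal cells and 25.1, 40.4 and 57.9 CPM in endothelial cells, and its AT2 median was 0 with a highest mouse of 1.11 CPM. Smad7 (chromosome 18, 75367529 to 75395935, plus strand) was highest in endothelial cells, at 144, 217 and 311 CPM, with 26.9, 81.7 and 121 CPM in mesenchymal cells and 14.3, 34.8 and 54.1 CPM in AT2 cells.

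**Figure D1:**
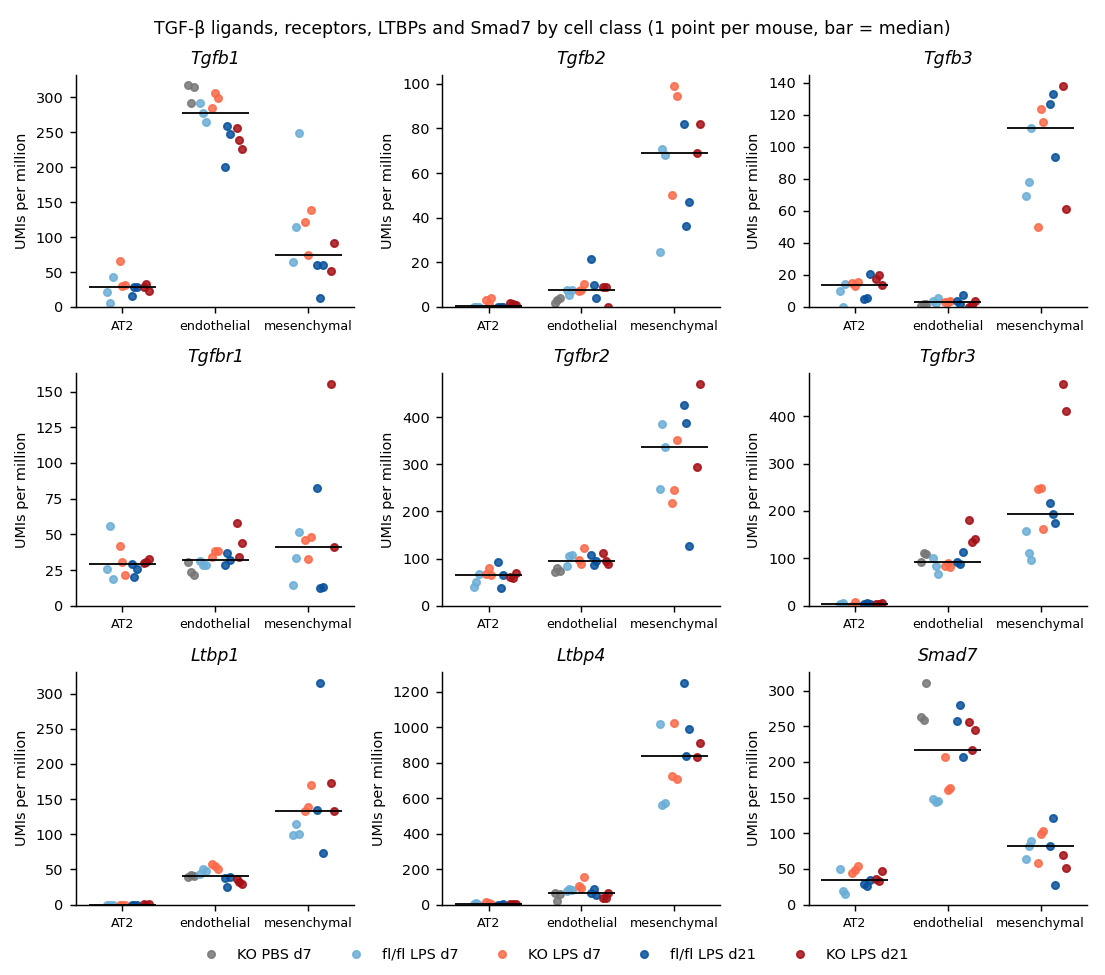
Levels of the 9 genes in CPM (vertical axis, linear) in AT2, endothelial and mesenchymal cells, with a point for each mouse with at least 10 cells, coloured by condition, and a bar at the median of the class. Tgfb1 and Smad7 are highest in endothelial cells, with medians of 277 and 217 CPM, and the other genes have their highest median in mesenchymal cells.

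Tests between classes, with the mouse as a block, bore on these differences. Between AT2 and endothelial cells, 7 members had enough counts and 5 were lower in AT2 cells, where 39.2% of all genes tested were lower and 73.5% were called in either direction, in 12 mice with both classes. Tgfb1 stood at a log2 difference of -2.55 (SE 0.12, edgeR adjusted p = 2.83e-16), Smad7 stood at -1.80 (SE 0.14, adjusted p = 7.32e-12), Tgfbr3 at -4.37 (SE 0.19, adjusted p = 1.54e-16) and Ltbp4 at -3.86 (SE 0.23, adjusted p = 7.66e-14). Ltbp1 was lower too, at -5.97, a size that depends on the prior count of the fit because most AT2 mice had no UMI. The receptors that carry the signal were not called, Tgfbr1 at 0.30 (edgeR adjusted p = 0.0695) and Tgfbr2 at -0.02 (adjusted p = 0.975), the latter turning to 0.015 with the size factors of DESeq2. Tgfb2 and Tgfb3 had too few counts to be tested there. The fits used TMM scaling and only mice with both classes, whereas the CPM levels above used neither, so the 2 measures differ in size. The median CPM in AT2 and endothelial cells was 29.5 and 32.3 for Tgfbr1, and 65.0 and 94.2 for Tgfbr2.

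Mesenchymal and endothelial cells differed for 9 of 9 members, where 56.5% of all genes were called. Higher in mesenchymal cells were 7 members, against 25.4% of all genes: Tgfb3 by 4.90 (SE 0.20, edgeR adjusted p = 3.20e-16), Ltbp4 by 3.56 (SE 0.20, adjusted p = 1.24e-13), Tgfb2 by 3.25, Tgfbr2 by 1.79, Ltbp1 by 1.72, Tgfbr3 by 1.24 and Tgfbr1 by 0.52 (SE 0.19, adjusted p = 0.0259). Lower were Tgfb1, at a log2 difference of -1.21 (SE 0.18, adjusted p = 5.20e-06), and Smad7, at -0.96 (SE 0.16, adjusted p = 1.13e-05), against 31.2% of all genes. AT2 cells were lower than mesenchymal cells for 7 of 8 members tested, among them Tgfb3 at -2.54 (SE 0.23, edgeR adjusted p = 8.84e-10) and Smad7 at -0.72 (SE 0.20, adjusted p = 0.00283), where 60.8% of all genes were called and 32.3% were lower. Tgfbr1 at -0.27 (adjusted p = 0.387) was the exception.

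Within the endothelial and mesenchymal classes the members were spread unevenly over vessel and stromal subtypes. Cells were given a subtype by the highest summed UMIs over short marker lists, a rule chosen after the data were seen, and the levels below are medians over libraries with no test. Aerocytes, the large capillary cells that face the airspace, held Tgfb1 at 412 CPM (4984 cells) and general capillary cells, which renew the capillary bed, at 228 CPM (14876 cells). In each of the 5 libraries aerocytes were the higher, with 448, 479, 412, 369 and 313 CPM against 228, 257, 267, 187 and 170 CPM for Itgb1 fl/fl LPS, Itgb1 iKO LPS and Itgb1 iKO PBS at day 7, and Itgb1 fl/fl and Itgb1 iKO at day 21. The exact 95% Poisson intervals of these values, which cover counting error only, did not overlap within any library. Smad7 ran the other way, at 262 CPM in general capillary and 150 CPM in aerocytes, and general capillary cells were the higher in all 5 libraries and in all mice but mouse 1 of Itgb1 iKO at day 21, with 204 CPM against 306 CPM in its aerocytes. Ltbp1 was at 53.4 CPM in general capillary cells and 6.78 CPM in aerocytes, Ltbp4 at 61.3 and 15.8 CPM, and Tgfbr3 at 80.7 and 148 CPM.

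The medians of larger vessels and lymphatics differed from those of capillaries again. Ltbp4 was at 529 CPM in arterial cells (74 cells), 351 CPM in venous cells (552 cells) and 952 CPM in lymphatic cells (234 cells), and Tgfb2 at 45.0, 44.9 and 65.6 CPM in the same order against 5.74 CPM in general capillary cells. Over 3 libraries arterial Ltbp4 ran from 71.9 to 819 CPM, which overlapped the 55.4 to 101 CPM of general capillary cells. Arterial Tgfb2 ran from 0 to 49.1 CPM, and lymphatic Tgfb2 from 40.2 to 408 CPM over 4 libraries. Lymphatic cells also held the highest endothelial Tgfbr2, 601 CPM, and the lowest Smad7, 17.0 CPM. In the mesenchyme, Tgfbr2 was at 465 CPM in alveolar fibroblasts (318 cells), 307 CPM in adventitial fibroblasts (794 cells), 164 CPM in pericytes (167 cells) and 235 CPM in smooth muscle cells (135 cells). Ligands followed another order. Tgfb2 was at 144 CPM in pericytes and 125 CPM in smooth muscle cells against 47.3 CPM in alveolar and 56.1 CPM in adventitial fibroblasts. Tgfb3 was at 126 CPM in adventitial fibroblasts, 125 CPM in smooth muscle cells, 47.0 CPM in alveolar fibroblasts and 15 CPM in pericytes, and Tgfb1 at 259 CPM in smooth muscle cells and 172 CPM in pericytes against 42.2 and 29.6 CPM in the 2 fibroblast types. Smooth muscle Tgfb1 ran from 39.6 to 288 CPM over 3 libraries, which overlapped the 23.5 to 93.1 CPM of alveolar fibroblasts. Ltbp1 was at 279 CPM in alveolar fibroblasts and 6.13 CPM in pericytes.

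**Figure D2:**
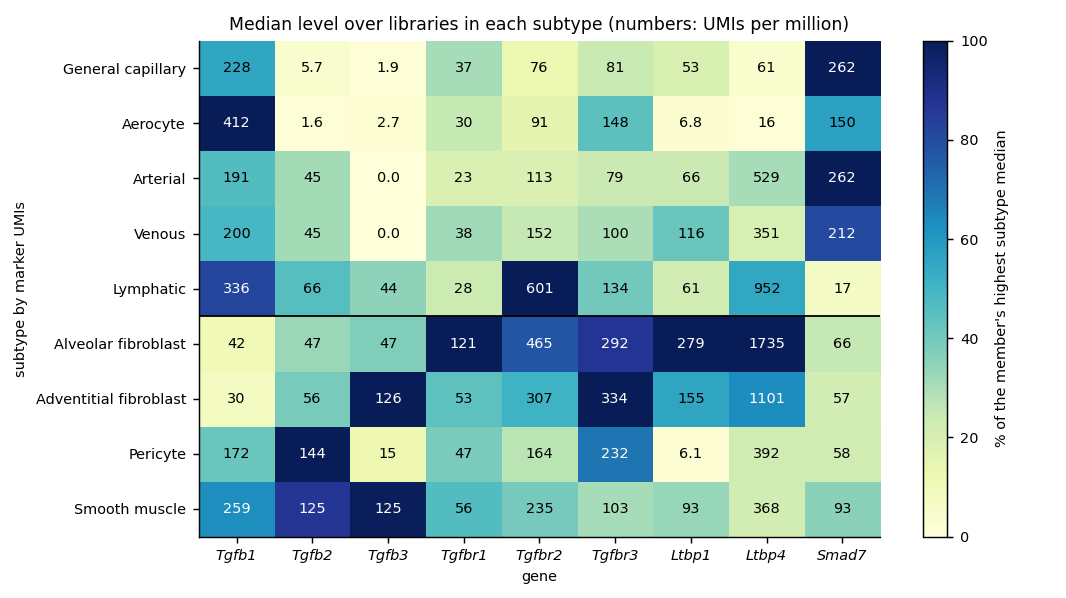
Level of each gene (columns) in each subtype (rows), as the median over libraries; the printed numbers are CPM and the shade is the percent of that gene's highest subtype median. Tgfb1 peaks in aerocytes (412 CPM), Smad7 in general capillary and arterial cells (262 CPM in each) and Ltbp4 in alveolar fibroblasts (1735 CPM).

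LPS was compared with PBS at day 7 in the endothelial cells of Itgb1 iKO lungs, since the PBS library held too few AT2 and mesenchymal cells per mouse for a test. The members changed there in both directions: the binding proteins, Tgfb2 and the signalling receptors rose, and Smad7 and Tgfbr3 fell. Of 9 members 7 were called, 5 higher and 2 lower, against 26.2% of all 11757 genes tested, 14.3% higher and 11.9% lower. The median log2 difference was 0.36 over the members and 0.016 over all genes.

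Smad7 fell. It was at 207, 161 and 163 CPM in the 3 LPS mice and at 263, 258 and 311 CPM in the 3 PBS mice, a log2 difference of -0.74 (SE 0.11, edgeR adjusted p = 5.83e-05), and the lowest PBS mouse lay above the highest LPS mouse. In general capillary cells alone, an analysis added after the data were seen, it was at 223, 166 and 183 CPM after LPS and 301, 304 and 370 CPM after PBS (-0.87, adjusted p = 2.31e-05). Aerocytes alone held 111, 145 and 128 CPM after LPS and 159, 135 and 168 CPM after PBS, which overlapped (-0.28, edgeR adjusted p = 0.375). The day 7 fl/fl mice after LPS, at 148, 144 and 145 CPM, lay below all iKO mice of either treatment, while day 21 mice of both genotypes stood between 207 and 280 CPM.

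Ltbp4 and Tgfb2 rose. Ltbp4 was at 107, 94.3 and 157 CPM after LPS and at 66.9, 21.5 and 57.4 CPM after PBS (log2 difference 1.19, SE 0.26, edgeR adjusted p = 0.00196), and the groups did not overlap. The size rested in part on PBS mouse 2, without which it was 0.86, and it was 1.5 without PBS mouse 1. Tgfb2 was low throughout, at 6.96, 7.61 and 10.3 CPM after LPS and 1.94, 2.96 and 4.10 CPM after PBS (1.38, SE 0.42, adjusted p = 0.0196). It was no longer called without LPS mouse 3 (adjusted p = 0.0658) or without PBS mouse 1 (adjusted p = 0.0686). Within general capillary cells Ltbp4 was at 102, 73.9 and 136 CPM against 70.1, 21.3 and 64.6 CPM (0.88, edgeR adjusted p = 0.0232), and Tgfb2 at 6.77, 5.97 and 9.40 CPM against 1.15, 2.04 and 3.82 CPM (1.57, adjusted p = 0.0142). In aerocytes alone Ltbp4 was at -0.13 (adjusted p = 0.912).

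The sequences just upstream of Ltbp4 and Tgfb2 are shown because these members had the largest called rises in endothelium. They are from RefSeq promoter windows on GRCm38.p6, 5′ to 3′ on the gene's strand and ending at the base before the annotated gene, with CAGAC, the core of the SMAD-binding element, in capitals where it was found.
Tgfb2 (chr1:186705990-186706239, minus strand): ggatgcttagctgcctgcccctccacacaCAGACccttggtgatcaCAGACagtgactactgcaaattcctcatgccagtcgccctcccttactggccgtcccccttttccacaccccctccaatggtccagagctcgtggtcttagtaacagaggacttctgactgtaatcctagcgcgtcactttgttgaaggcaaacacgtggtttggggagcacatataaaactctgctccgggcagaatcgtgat
Ltbp4 (chr7:27337693-27337862, minus strand): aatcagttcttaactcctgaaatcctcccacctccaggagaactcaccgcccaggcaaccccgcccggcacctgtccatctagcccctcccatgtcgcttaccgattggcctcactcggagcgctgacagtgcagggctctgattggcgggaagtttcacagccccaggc
The Tgfb2 stretch held CAGAC at 2 places and the Ltbp4 stretch at 0, counting either strand (CAGAC or its reverse complement GTCTG). Windows of 250 bases before and 50 after a start were counted for 6 of the 9 members, 10 windows in all. Of these 5 held the motif, as did 49.6% of all 32851 windows. No window of Tgfb3, Tgfbr3 or Smad7 was in this count, so it leaves out both members called lower after LPS. The palindrome GTCTAGAC, made of the shorter SMAD box GTCT and its reverse complement AGAC, was in 0 member windows and in 0.213% of all windows. A match of letters is a description and not a binding site.

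The receptors and Ltbp1 moved less. Ltbp1 was at 57.9, 55.3 and 50.6 CPM after LPS and 39.3, 41.3 and 40.4 CPM after PBS (0.34, SE 0.10, edgeR adjusted p = 0.0174). Tgfbr1 was at 34.0, 38.0 and 38.4 CPM against 30.7, 23.3 and 21.3 CPM (0.45, SE 0.14, adjusted p = 0.0225), and Tgfbr2 at 98.0, 88.5 and 123 CPM against 71.6, 79.6 and 74.6 CPM (0.36, SE 0.12, adjusted p = 0.0284). Tgfbr3 went down, from 91.6, 110.2 and 109 CPM after PBS to 84.6, 89.5 and 81.7 CPM after LPS (-0.37, SE 0.13, adjusted p = 0.0352). None of these 4 was called in general capillary cells alone, where Ltbp1 stood at 0.08, Tgfbr1 at 0.32, Tgfbr2 at 0.24 and Tgfbr3 at -0.33. Each also lost its call when some single mouse was left out, and the number of members called was then 3 to 5, lowest without LPS mouse 3 and without PBS mouse 3. Tgfb1 was at 285, 306 and 299 CPM after LPS and 317, 292 and 315 CPM after PBS (-0.15, adjusted p = 0.199). Tgfb3 (1.04, adjusted p = 0.125) was not called either, and its level of 2.79 to 3.81 CPM after LPS was low enough that carried mesenchymal RNA at the marker share could amount to 31.5% of it.

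**Figure D3:**
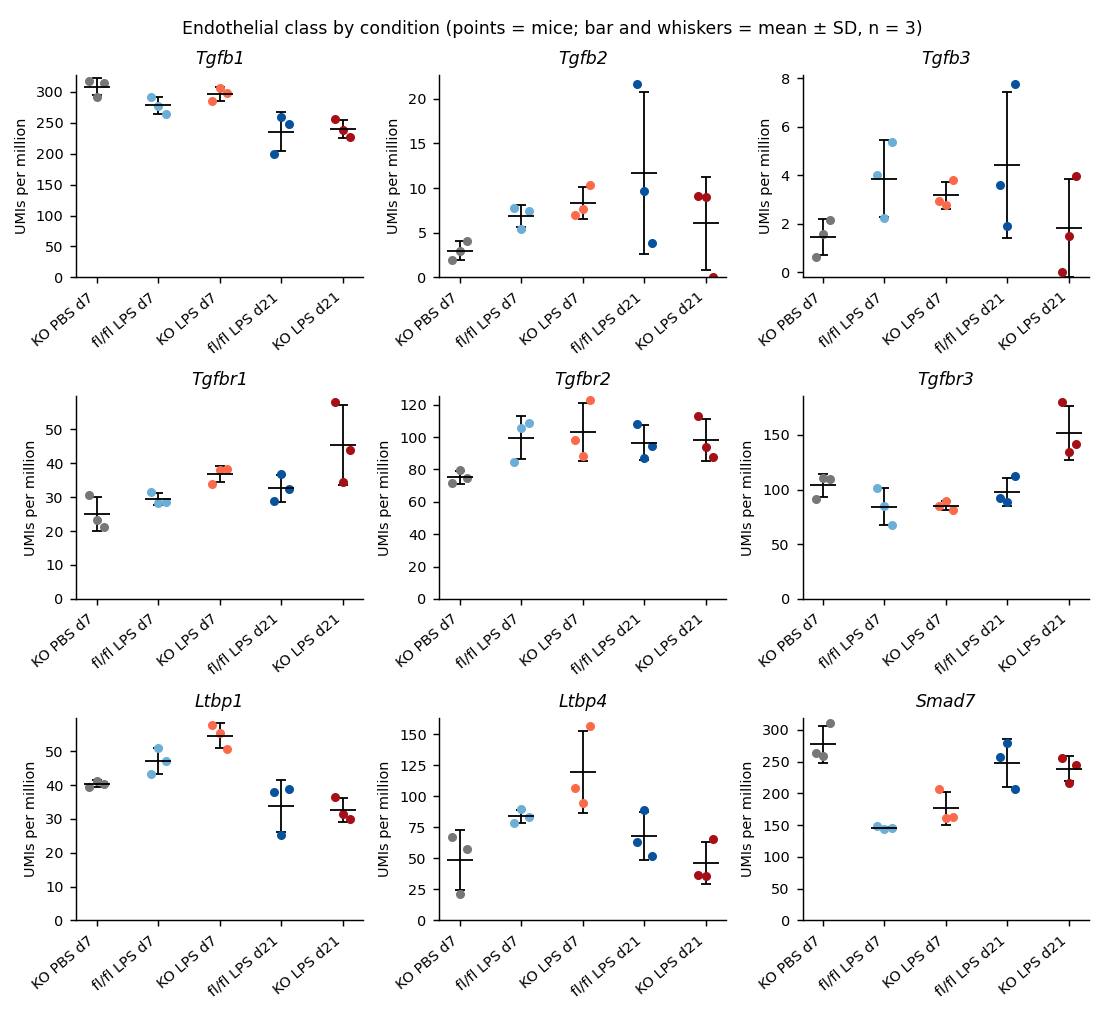
Endothelial level of each gene in CPM (vertical axis, linear) in the 5 conditions, with points for mice and a bar with whiskers for mean ± SD (n = 3 mice). Between the 2 Itgb1 iKO day 7 conditions, Smad7 is lower after LPS (177 ± 25.8 against 277 ± 29.1 CPM) and Ltbp4 higher (119 ± 32.9 against 48.6 ± 23.9 CPM).

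Other measures moved with LPS in the same endothelial cells. The 8 mesenchymal markers summed to 314, 353 and 321 CPM after LPS and 63.3, 56.1 and 66.4 CPM after PBS, the 8 AT2 markers to 1185, 1344 and 754 against 189, 212 and 263 CPM, and the 4 lymphatic markers to 229.8, 288 and 1498 against 47.7, 34.6 and 47.9 CPM. The 11 immune markers summed to 268, 286 and 183 CPM after LPS and 59.1, 28.1 and 35.9 CPM after PBS. Aerocytes made up 11.6%, 11.0% and 14.3% of the class after LPS and 20.4%, 19.6% and 20.4% after PBS. For each of these the groups did not overlap, and an exact two-sided permutation test gave p = 0.1, the smallest that 3 mice against 3 allow. At the marker share of 0.915% in the LPS library, mesenchymal RNA would account for 0.50% of the endothelial Smad7 level, 6.05% of Ltbp4 and 9.95% of Tgfb2. The part of the lymphatic cells in the class totals was not tested beyond the values for general capillary cells given above. Without PBS mouse 1, which carried Xist, Smad7 stood at -0.78, with the remaining mice of both treatments all typed as male.

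The genotype comparison asked whether loss of Itgb1 from AT2 cells was accompanied by a change of the pathway after LPS. No member was called in any class at either day by edgeR. At day 7, 4 members were tested in AT2 cells and 9 in each of the other classes, where 2.06%, 2.46% and 0.115% of all genes were called in AT2, endothelial and mesenchymal cells. At day 21 the same numbers were tested, and 4.05%, 0.527% and 0% of all genes were called. At an unadjusted p under 0.05 stood 0, 2 and 1 members at day 7 and 0, 1 and 1 at day 21. Of all genes, 853 of 6348, 1717 of 11757 and 287 of 5210 stood there at day 7 in AT2, endothelial and mesenchymal cells. At day 21 the numbers over all genes were 1093, 1354 and 569. DESeq2 called 0 members on either day.

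Tgfbr3 in mesenchymal cells did not overlap between the genotypes among the cells given to a mouse, without passing the test. At day 7 it was at 158, 111 and 96.3 CPM in Itgb1 fl/fl mice and 247, 249 and 161 CPM in Itgb1 iKO mice, and at day 21 at 217, 194 and 175 CPM in fl/fl and 467 and 410 CPM in the 2 iKO mice with enough cells. The log2 differences were 0.91 (edgeR adjusted p = 0.427) and 1.08 (adjusted p = 0.274). The day 21 values rest on 26, 13 and 24 cells in fl/fl and 15 and 24 cells in iKO mice. With the highest hashtag at 3 times the next, the same fl/fl mice held 1, 135 and 13 mesenchymal cells. The split of these cells between mice thus depends on the hashtag rule. Over all 331 and 165 mesenchymal cells of the day 21 libraries, with or without a hashtag, Tgfbr3 was at 322 CPM in fl/fl (exact 95% Poisson interval 293 to 354) and 344 CPM in iKO (299 to 394), and these intervals overlapped. Endothelial Tgfbr3 at day 21 was at 92.0, 88.8 and 112 CPM in fl/fl and 180, 135 and 141 CPM in iKO mice (0.58, edgeR adjusted p = 0.194), without overlap. Aerocytes, which held more Tgfbr3 than general capillary cells in all 15 mice, were 34 of 215, 48 of 206 and 86 of 309 of these cells in fl/fl and 60 of 144, 96 of 280 and 80 of 221 in iKO mice. In general capillary cells alone Tgfbr3 was at 86.6, 73.4 and 76.0 CPM in fl/fl and 95, 82.1 and 81.4 CPM in iKO mice, which overlapped (0.082, adjusted p = 0.977). In aerocytes alone it was at 112, 126 and 174 CPM against 264, 211 and 220.3 CPM, which did not overlap (0.69, edgeR adjusted p = 0.294). At day 7 the endothelial level was 101, 84.5 and 67.3 CPM against 84.6, 89.5 and 81.7 CPM, which overlapped. Endothelial Smad7 at day 7 was higher in all 3 iKO mice (207, 161 and 163 CPM) than in the fl/fl mice (148, 144 and 145 CPM), with a log2 difference of 0.26, and Tgfbr1 likewise (34.0, 38.0 and 38.4 against 31.5, 28.3 and 28.6 CPM, 0.30), but neither passed the adjustment over all genes. For the members given here as not overlapping, the share of all genes whose mice separate in the same way was not counted. Separation of 3 mice from 3 cannot by itself take an exact two-sided permutation p below 0.1.

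AT2 cells, the class that lost Itgb1, gave no call. Tgfb1 was at 42.0 ± 20.2 CPM in iKO and 23.6 ± 18.4 CPM in fl/fl mice at day 7 (SD, n = 3; log2 difference 0.56, edgeR adjusted p = 0.627). Tgfbr2 was at 71.2 ± 7.47 against 51.8 ± 13.8 CPM (0.49, adjusted p = 0.481), Smad7 at 49.1 ± 4.83 against 27.3 ± 19.1 CPM (0.42, adjusted p = 0.652) and Tgfbr1 at 31.2 ± 10.1 against 33.4 ± 19.5 CPM (-0.07, adjusted p = 0.966). The fl/fl mice held 17 to 54 AT2 cells each at day 7, which limits what these means can show. In simulated counts for this comparison, 19 of 50 genes with a log2 difference of 1 were called, and 9 of 47 at -1. At day 21 Tgfb1 was at 27.5 ± 4.85 CPM in iKO and 24.5 ± 7.53 CPM in fl/fl mice, and Smad7 at 38.5 ± 7.04 and 29.8 ± 4.11 CPM. The genotype differences at day 21 and day 7 were also compared with each other, and no member was called, against 0.63%, 0.995% and 0.0192% of all genes in AT2, endothelial and mesenchymal cells. Endothelial Tgfbr3 (0.58, edgeR adjusted p = 0.282) was the 1 member under an unadjusted p of 0.05, where 1400 of all 11757 genes tested in endothelial cells stood.

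**Figure D4:**
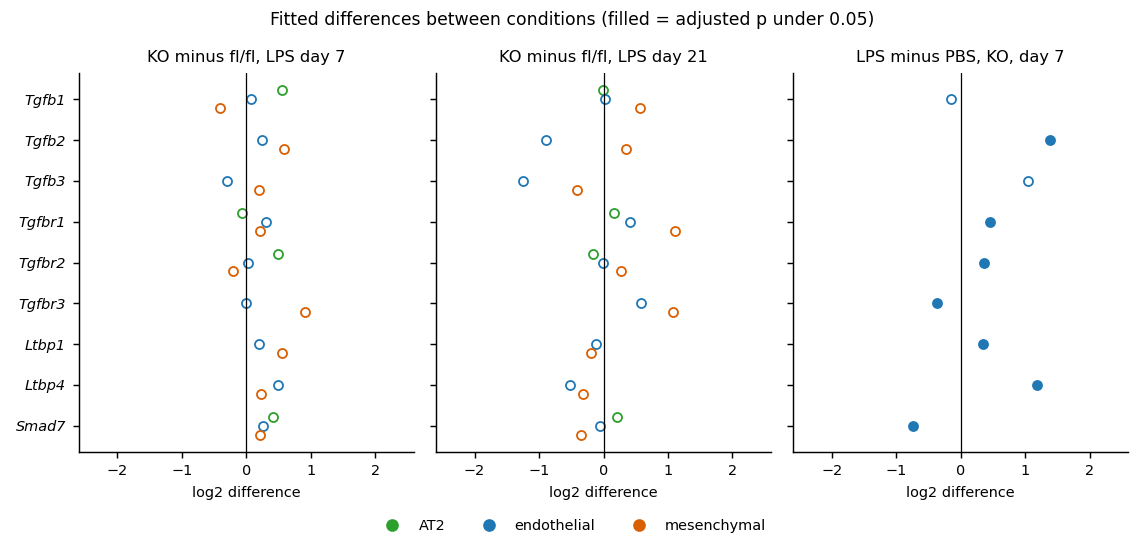
Fitted log2 differences (horizontal axis) of the 9 genes (vertical axis) for each comparison of conditions, coloured by cell class, with filled points where the edgeR adjusted p was under 0.05. Filled points appear only for LPS against PBS in endothelial cells, from -0.74 for Smad7 to 1.38 for Tgfb2, and every genotype point is open.

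The rest of the pathway was followed in a list of 54 genes in 6 roles. After LPS, 49 of them were tested in endothelial cells of Itgb1 iKO lungs, and 20 were higher and 10 lower, where 26.2% of all genes were called, 14.3% higher and 11.9% lower. The median log2 difference over the tested list was 0.11, against 0.016 over all genes. The genes that bind the latent complex had 3 higher and 1 lower of 6 tested. Nrros, which anchors latent TGF-β at the cell surface, was at 135, 110.1 and 123 CPM after LPS and 60.3, 64.0 and 71.7 CPM after PBS (0.81, edgeR adjusted p = 4.01e-05). Lrrc32, its relative, was lower (-0.53, adjusted p = 0.00479), while Ltbp2 (1.60, adjusted p = 0.0266) and Fbn1, the fibrillin of microfibrils (2.65), were higher. Carried mesenchymal RNA at the marker share would make up 47.4% of Ltbp2 and 45.3% of Fbn1 in these cells, and 0.0039% of Nrros. Immune markers were also higher there after LPS (mean 246 against 41.0 CPM), and their part in the Nrros level was not tested.

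Genes that release the ligand had 3 higher and 1 lower of 6. The protease Mmp14 was higher by 1.67 (edgeR adjusted p = 0.000305), the integrin subunit Itgb3 by 1.76 (adjusted p = 0.00549) and thrombospondin 1, Thbs1, by 1.09 (adjusted p = 0.0175), and the integrin subunit Itgb5 was lower at -1.04 (adjusted p = 0.000426). Carried mesenchymal RNA at the marker share would make up 45.9% of Thbs1, 7.69% of Mmp14 and 1.32% of Itgb3. Mmp14 was still called in general capillary cells alone (1.33) and Itgb5 was not (-0.36, adjusted p = 0.442). Among receptors 2 of 3 were lower and 0 higher, both endothelial receptors of the TGF-β and BMP9 branch. Eng (endoglin) was at 1142, 1002 and 955 CPM after LPS and 1610, 1529 and 1829 CPM after PBS (-0.77, edgeR adjusted p = 1.84e-05), and Acvrl1 (ALK1) at 1315, 1220 and 1085 against 1710, 1721 and 1977 CPM (-0.67, adjusted p = 5.27e-05). Both were called in general capillary cells alone (-0.79 and -0.66). Of 3 signal carriers tested, Smad2 was higher (0.36, adjusted p = 0.0283).

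Inhibitors had 2 higher and 3 lower of 10. Smad6, the inhibitory SMAD that acts mainly on the BMP branch, fell from 512, 425 and 583 CPM after PBS to 276, 296 and 273 CPM after LPS (-0.94, edgeR adjusted p = 7.00e-06), and stood at -1.05 in general capillary cells alone. Smurf2, a ubiquitin ligase that acts with Smad7, was lower (-0.47, adjusted p = 0.000988), and the corepressor Tgif1 was higher (0.67, adjusted p = 0.0158), as was the ligand-binding proteoglycan Dcn (2.02). Of 21 responsive genes 11 were higher and 3 lower. The largest differences were in matrix and contractile genes: Lox 4.28, Fn1 3.80, Col1a1 3.28 and Acta2 2.37. At the marker share, carried mesenchymal RNA would bring 79.1% of Lox, 92.3% of Fn1 and 70.6% of Acta2 in these cells, 126% of Dcn and 300% of Col1a1. Dcn and Col1a1 are themselves among the markers that set this share. Col1a1 stood at 35.2 CPM against 106 CPM carried at the share, so the share overstated the carried RNA for this gene. How well the share holds for the other genes was not tested. Fn1 still stood at 3.39 in general capillary cells alone.

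**Figure D5:**
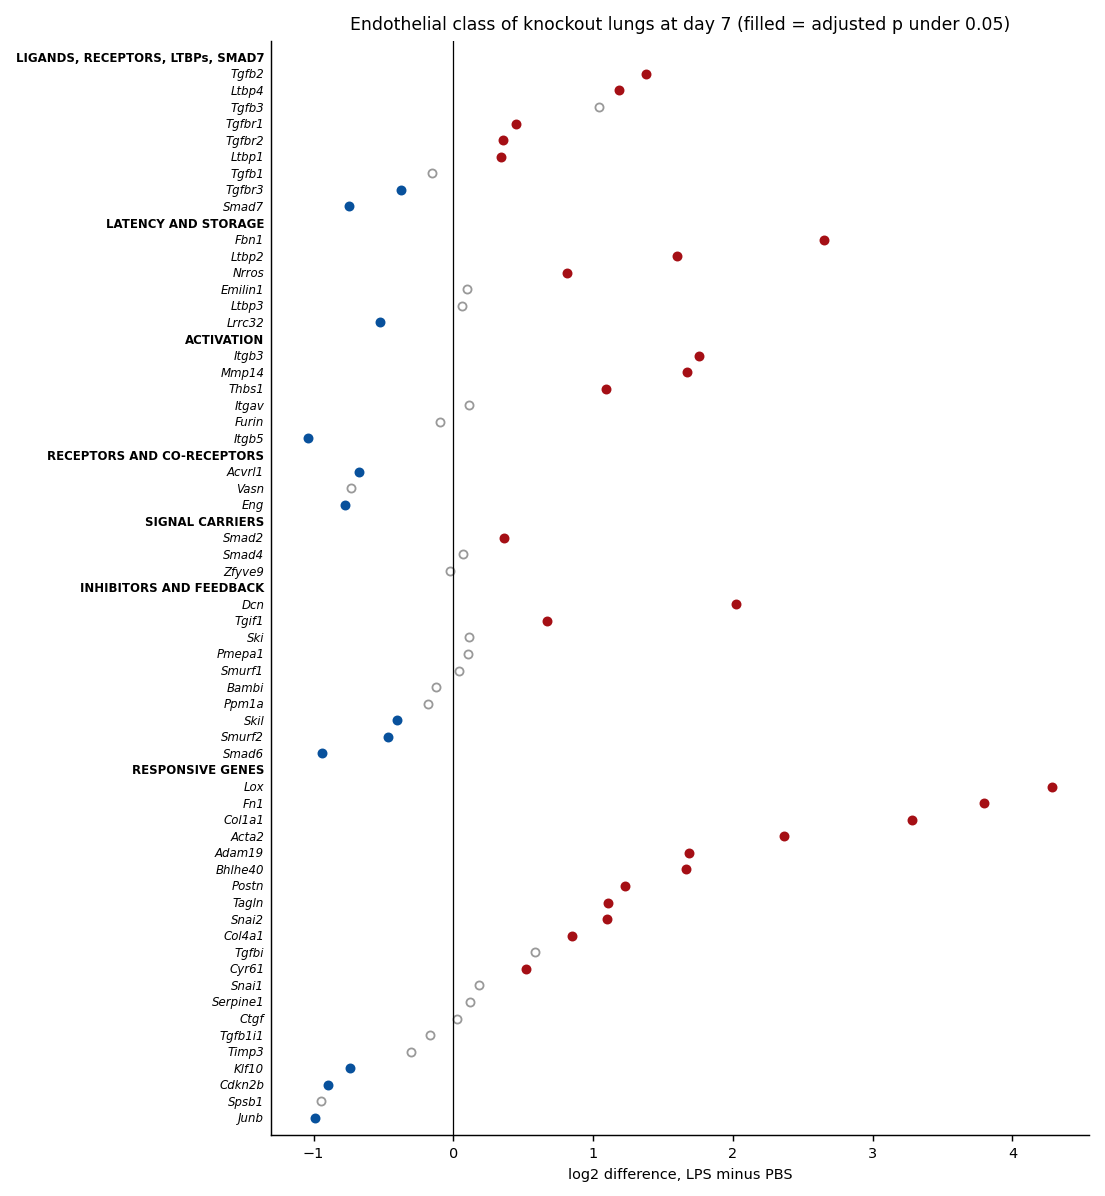
Log2 difference between LPS and PBS (horizontal axis) for the members and the pathway genes tested in endothelial cells of Itgb1 iKO lungs at day 7, ordered by role, with filled points where the edgeR adjusted p was under 0.05. The receptors Eng (-0.77) and Acvrl1 (-0.67) and the inhibitors Smad6 (-0.94) and Smad7 (-0.74) lie to the left, and the matrix genes Lox (4.28) and Fn1 (3.80) to the right.

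Between genotypes the pathway list gave few calls. In AT2 cells at day 7, 1 of 27 genes was called, where 2.06% of all genes were: Ltbp3, another binding protein, was at 142, 125 and 114 CPM in iKO and 47.2, 67.9 and 85.7 CPM in fl/fl mice (0.94, SE 0.21, edgeR adjusted p = 0.0139). At day 21, 4 of 27 were called, where 4.05% of all genes were. Skil, a SMAD corepressor and feedback target, was at 88.9, 89.7 and 95.4 CPM in iKO and 47.5, 37.7 and 32.8 CPM in fl/fl mice (1.14, adjusted p = 0.00375). Cyr61 (0.94, adjusted p = 0.0139) and the metalloproteinase inhibitor Timp3 (0.65, adjusted p = 0.0180) were higher, and the matrix protein Tgfbi was lower, at 11.9, 11.5 and 7.76 CPM against 34.3, 14.5 and 43.8 CPM (-1.83, adjusted p = 0.00243).

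In endothelial cells at day 7, 4 of 49 pathway genes were higher and 1 lower in iKO mice, where 2.46% of all genes were called in either direction. Bhlhe40, a transcription factor that TGF-β induces in many cells, was at 106, 168 and 183 CPM in iKO and 77.9, 67.7 and 75.5 CPM in fl/fl mice (1.03, edgeR adjusted p = 0.00312). Col1a1 (0.91, adjusted p = 0.0187), Cyr61 (0.66, adjusted p = 0.0279) and Ctgf (0.64, adjusted p = 0.0468) were also higher, beside mesenchymal markers that summed to 314 to 353 CPM in iKO and 219 to 263 CPM in fl/fl endothelial cells, whose part in these was not tested. Emilin1, which restrains processing of the TGF-β precursor, was lower, at 73.7, 60.1 and 74.0 CPM against 96.2, 110.1 and 93.8 CPM (-0.55, adjusted p = 0.00876). At day 21, 2 of 49 were called, both lower, where 0.527% of all genes were called. Smad6 was at 302, 269 and 245 CPM in iKO and 411, 483 and 424 CPM in fl/fl mice (-0.70, edgeR adjusted p = 0.0200), and Junb at 957, 1039 and 1158 CPM against 2408, 1780 and 1612 CPM (-0.88, adjusted p = 0.0257). In mesenchymal cells edgeR called 0 of 43 at either day, and DESeq2 called 0 at day 7 and 3 at day 21. Under an unadjusted edgeR p of 0.05 stood 2 pathway genes at day 7 and 6 at day 21. Of all 5210 genes tested there, 287 and 569 did.

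The pattern of each member over 38 points, each a mouse in a class, was set beside all genes of at least 50 CPM in some point. The points share libraries and differ mainly by class, so the correlations of log2 levels describe the class order and carry no test. Nearest to Tgfb1 was Msn (Pearson r = 0.957), followed by the arterial connexin Gja4 (0.945) and Ehd1 (0.941). Tgfb2 was nearest to Colec12 (0.973) and Fbn1 (0.945), Tgfb3 to Htra1 (0.949), Tgfbr2 to Hsd11b1 (0.948) and Fbn1 (0.940), and Tgfbr3 to Mpdz (0.961). Ltbp1 was nearest to Zcchc24 (0.988), Ltbp4 to the lysyl oxidase relative Loxl2 (0.969), and Smad7 to Bmpr2, the type II BMP receptor (0.937). Tgfbr1 had no close neighbour, with Usp45 at 0.739. Among the members themselves Tgfbr3 and Ltbp1 were the most alike (0.951), and Tgfb1 and Smad7 stood at 0.823.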

How the data were processed

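Droplet libraries of sorted lung cells were counted by the authors with Cell Ranger 3.1 on mm10 (submitters' notes, which also list Seurat 4.1.0). The deposited matrices hold UMI counts per gene and cell, unnormalized, with no correction for free RNA and no removal of doublets, and with hashtag counts. Strand use in counting was not given in the sources used here, so Tgfb2 and Tgfb3, which overlap genes on the other strand, are uncertain to that extent.

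Barcodes were kept where 700 genes or more were detected and mitochondrial genes made up 0.1% to 15% of UMIs. AT2 cells had Sftpc at 5% of UMIs or more and at least 1 Epcam UMI, endothelial cells at least 2 UMIs of Cdh5 and Pecam1 together, and mesenchymal cells at least 2 of Col1a2, each with 0 UMIs of the other gates' genes. Each hashtag was taken as 1 mouse. A cell was given to it where that hashtag alone reached 4 times its background, which held for 50.3% to 78.7% of cells. The background was the hashtag's median count in cells where another hashtag was highest. At day 21 the split of cells between mice depended on this rule. With the highest hashtag at 3 times the next, AT2 cells of iKO mouse 3 numbered 46 in place of 302. Doublets were kept in the reported values and removed in an alternative that used scanpy 1.11.5.

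UMIs were summed per mouse and class, with at least 10 cells per mouse and 2 mice per group, and tested with edgeR 4.0.16 (TMM, filterByExpr, quasi-likelihood, 1 fit per class over all groups) in R 4.3.3. The p-values were adjusted by Benjamini-Hochberg over all genes, with calls at 0.05. Levels (CPM) are UMIs scaled to 1000000 UMIs of the mouse's class, without the TMM factors that the tests used. DESeq2 1.42.0 was an alternative. The p-values measure the spread between mice of a library. The test was checked on simulated counts for the day 7 genotype comparison, with a fixed spread between mice. At a log2 difference of 1, 19 of 50 changed genes were called in AT2, 26 of 50 in endothelial and 26 of 48 in mesenchymal cells. At -1 these were 9 of 47, 24 of 50 and 16 of 41, and at 2 they were 47, 50 and 50 of 50 each. Of unchanged genes, 5 of 6021, 11 of 11280 and 5 of 4489 were called. Gene positions are from GENCODE on GRCm38, which matched 99.6% of the gene identifiers.

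The members were chosen by name and not by their values. The members, the pathway list (latency, activation, receptors, carriers, inhibitors and responsive genes) and the marker lists were nevertheless set with earlier results of these data known. All members were named in every comparison, and of the pathway list up to 4 called genes per role with the largest differences. Genes given for likeness were the 3 with the highest Pearson r, of which not all are printed.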

Additional observations from a re-analysis of the deposited data

Results flagged for a closer look

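In endothelial cells the difference between Itgb1 iKO and Itgb1 fl/fl mice was itself compared between day 21 and day 7, and 3 pathway genes of 49 tested differed, all with a lower value at day 21, where 0.995% of all genes were called. Junb, an immediate early transcription factor, changed by -1.37 (edgeR adjusted p = 0.0104): it was at 1019, 1360 and 969 CPM in iKO and 981, 621 and 753 CPM in fl/fl mice at day 7, which overlapped, and lower in all iKO mice at day 21. Cyr61, a matricellular protein, changed by -1.19 (adjusted p = 0.0324). Its iKO mice were at 186, 179 and 184 CPM against 129, 76.6 and 137 CPM at day 7 and at 259, 166 and 195 CPM against 321, 266 and 279 CPM at day 21, so each day separated the genotypes in the opposite order. Smad6 changed by -0.88 (adjusted p = 0.0193). At day 7 the fl/fl mice were female and the iKO mice male. At day 21 fl/fl mice 2 and 3 carried mainly Xist and fl/fl mouse 1 carried both, as above. Of the day 21 iKO mice, mouse 1 carried mainly Xist and mice 2 and 3 mainly Y-linked UMIs. Sex was therefore not balanced between genotypes on either day, and its part in these differences was not tested.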

How the results depend on the processing

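No pairing of mice between conditions was possible because the labels give no replicate numbers and mice of different conditions share nothing but a hashtag. Endothelial Smad7 and Ltbp4 were called between LPS and PBS under every alternative planned and without each mouse in turn, at -0.88 to -0.67 and 0.86 to 1.5. Lost calls there were Ltbp1 with no filter on low counts (adjusted p = 0.0513), Tgfbr1 with only the groups compared (0.0608) and with the highest hashtag at 3 times the next (0.0884), Tgfbr2 with the DESeq2 test (0.0517) and with only the groups compared (0.0636), and Tgfbr3 with that hashtag rule (0.0603). Tgfb3 was gained with it (0.0376). Depth left AT2 and mesenchymal cells of the PBS library (26 and 103 cells) untested. The cause of the changes below was not tested, apart from settings that test fewer cells, more genes or other samples. The values from 1 capillary type alone were added after the data were seen.

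Genes that took the opposite sign were these, most of them near 0 and none called under the alternative, and only Ltbp4, Lrrc32 and Smurf2 between LPS and PBS in aerocytes had been called in the whole class. With the size factors of DESeq2, the opposite sign appeared between AT2 and endothelial cells at 0.015 for Tgfbr2 and between genotypes at day 21 at 0.0043 for endothelial Tgfbr2. With the DESeq2 test, the opposite sign appeared between genotypes at day 21 at 0.016 for AT2 Tgfb1 and 0.0062 for endothelial Tgfbr2. With the gate allowing 1 UMI, the opposite sign appeared between genotypes at day 21 at 0.0023 for mesenchymal Smad7, 0.11 for AT2 Tgfb1, -0.021 for endothelial Tgfb1 and 0.044 for endothelial Tgfbr2, for the day 21 minus day 7 genotype difference at 0.054 for mesenchymal Tgfb2, 0.034 for endothelial Tgfbr2 and -0.016 for mesenchymal Tgfbr3 and between genotypes at day 7 at 0.15 for AT2 Tgfbr1 and 0.016 for endothelial Tgfbr3. With the highest hashtag at 3 times the next, the opposite sign appeared between genotypes at day 21 at 0.011 for endothelial Smad7 and -0.0018 for endothelial Tgfb1, for the day 21 minus day 7 genotype difference at -0.12 for endothelial Tgfbr1 and -0.24 for mesenchymal Tgfbr3 and between genotypes at day 7 at 0.0056 for endothelial Tgfbr3. With no filter on low counts, the opposite sign appeared between genotypes at day 21 at 0.049 for AT2 Tgfb1 and 0.00082 for endothelial Tgfbr2. With only the groups compared in the fit, the opposite sign appeared between genotypes at day 21 at 0.00044 for AT2 Tgfb1 and 0.020 for endothelial Tgfbr2 and between genotypes at day 7 at 0.0010 for endothelial Tgfbr3. Without predicted doublets, the opposite sign appeared between genotypes at day 21 at 0.12 for AT2 Tgfb1. With general capillary cells alone, the opposite sign appeared between genotypes at day 21 at -0.095 for endothelial Tgfb1, for the day 21 minus day 7 genotype difference at -0.25 for endothelial Tgfbr1 and between genotypes at day 7 at 0.080 for endothelial Tgfbr3. With aerocytes alone, the opposite sign appeared between LPS and PBS at 0.032 for endothelial Lrrc32, -0.13 for endothelial Ltbp4, 0.038 for endothelial Smurf2 and 0.26 for endothelial Tgfb1, between genotypes at day 21 at 0.36 for endothelial Smad7, -0.13 for endothelial Tgfb1 and 0.061 for endothelial Tgfbr2, between genotypes at day 7 at -0.0064 for endothelial Tgfbr1, -0.063 for endothelial Tgfbr2 and 0.064 for endothelial Tgfbr3 and for the day 21 minus day 7 genotype difference at 0.12 for endothelial Tgfbr2.

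Counts that moved by more than 1.5 times were these. With the DESeq2 test, the calls over all genes numbered 200 endothelial and 47 mesenchymal between genotypes at day 21, 201 endothelial and 16 mesenchymal for the day 21 minus day 7 genotype difference and 11 mesenchymal between genotypes at day 7, and the pathway genes called numbered 5 endothelial and 3 mesenchymal for the day 21 minus day 7 genotype difference and 3 mesenchymal between genotypes at day 21. With the gate allowing 1 UMI, the calls over all genes numbered 138 endothelial and 13 mesenchymal between genotypes at day 21, 4 mesenchymal for the day 21 minus day 7 genotype difference and 10 mesenchymal between genotypes at day 7, and the pathway genes called numbered 3 AT2 between genotypes at day 7 and 1 mesenchymal between genotypes at day 21. With the highest hashtag at 3 times the next, the calls over all genes numbered 128 AT2 between genotypes at day 21 and 21 AT2 and 55 endothelial for the day 21 minus day 7 genotype difference, and the pathway genes called numbered 1 endothelial between genotypes at day 21 and 1 endothelial for the day 21 minus day 7 genotype difference. With no filter on low counts, the calls over all genes numbered 95 AT2, 259 endothelial and 51 mesenchymal for the day 21 minus day 7 genotype difference, 209 AT2, 594 endothelial and 138 mesenchymal between genotypes at day 7, 9604 between AT2 and endothelial cells, 6840 between AT2 and mesenchymal cells, 7659 between mesenchymal and endothelial cells and 194 endothelial and 69 mesenchymal between genotypes at day 21, and the pathway genes called numbered 4 AT2, 10 endothelial and 4 mesenchymal for the day 21 minus day 7 genotype difference, 4 AT2, 10 endothelial and 1 mesenchymal between genotypes at day 7 and 4 endothelial and 6 mesenchymal between genotypes at day 21. With only the groups compared in the fit, the calls over all genes numbered 82 AT2 between genotypes at day 7 and 129 endothelial and 8 mesenchymal between genotypes at day 21, and the pathway genes called numbered 0 AT2 and 2 endothelial between genotypes at day 7 and 1 mesenchymal between genotypes at day 21. Without predicted doublets, the calls over all genes numbered 8 mesenchymal between genotypes at day 21 and 3 mesenchymal for the day 21 minus day 7 genotype difference, and the pathway genes called numbered 2 AT2 between genotypes at day 7, 1 mesenchymal between genotypes at day 21 and 1 mesenchymal for the day 21 minus day 7 genotype difference. With general capillary cells alone, the calls over all genes numbered 38 endothelial between genotypes at day 21 and 17 endothelial for the day 21 minus day 7 genotype difference, and the members called numbered 3 endothelial between LPS and PBS, and the pathway genes called numbered 1 endothelial between genotypes at day 21 and 1 endothelial for the day 21 minus day 7 genotype difference. With aerocytes alone, the calls over all genes numbered 444 endothelial between LPS and PBS, 8 endothelial between genotypes at day 21, 36 endothelial for the day 21 minus day 7 genotype difference and 70 endothelial between genotypes at day 7, and the members called numbered 0 endothelial between LPS and PBS, and the pathway genes called numbered 12 endothelial between LPS and PBS, 1 endothelial between genotypes at day 21, 1 endothelial for the day 21 minus day 7 genotype difference and 0 endothelial between genotypes at day 7.

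Each mouse was also left out in turn. Between genotypes at day 21, the log2 difference then ranged from -0.27 to 0.012 for endothelial Ltbp1, from -0.58 to 0.46 for mesenchymal Ltbp1, from -0.19 to 0.029 for endothelial Smad7, from -0.82 to 0.054 for mesenchymal Smad7, from -0.18 to 0.18 for AT2 Tgfb1, from -0.075 to 0.076 for endothelial Tgfb1, from -0.080 to 0.89 for mesenchymal Tgfb1, from -0.95 to 0.074 for mesenchymal Tgfb3, from -0.35 to 0.10 for AT2 Tgfbr2, from -0.083 to 0.086 for endothelial Tgfbr2 and from -0.24 to 0.62 for mesenchymal Tgfbr2. For the day 21 minus day 7 genotype difference, the log2 difference then ranged from -1.32 to 0.073 for AT2 Smad7, from -0.15 to 0.0032 for endothelial Tgfb1, from -0.49 to 0.16 for mesenchymal Tgfb2, from -0.091 to 0.47 for AT2 Tgfbr1, from -0.059 to 0.31 for endothelial Tgfbr1, from -0.15 to 2.41 for mesenchymal Tgfbr1, from -0.14 to 0.10 for endothelial Tgfbr2, from -0.039 to 0.80 for mesenchymal Tgfbr2 and from -0.068 to 0.41 for mesenchymal Tgfbr3. Between genotypes at day 7, the log2 difference then ranged from -0.67 to 0.32 for mesenchymal Tgfb1, from -0.57 to 0.0032 for endothelial Tgfb3, from -0.29 to 0.27 for AT2 Tgfbr1, from -0.11 to 0.14 for endothelial Tgfbr2 and from -0.15 to 0.16 for endothelial Tgfbr3. Between AT2 and endothelial cells, the log2 difference then ranged from -0.089 to 0.0095 for Tgfbr2. The calls over all genes between genotypes at day 21 then numbered 80 to 177 in AT2 cells, 10 to 55 in endothelial cells and 0 to 1 in mesenchymal cells. The calls over all genes for the day 21 minus day 7 genotype difference then numbered 14 to 50 in AT2 cells, 32 to 110 in endothelial cells and 0 to 4 in mesenchymal cells. The calls over all genes between genotypes at day 7 then numbered 42 to 128 in AT2 cells, 147 to 305 in endothelial cells and 3 to 26 in mesenchymal cells. The members called between LPS and PBS then numbered 3 to 5 in endothelial cells. The pathway genes called between genotypes at day 21 then numbered 1 to 4 in AT2 cells and 0 to 2 in endothelial cells. The pathway genes called between genotypes at day 7 then numbered 1 to 2 in AT2 cells and 1 to 6 in endothelial cells. The pathway genes called for the day 21 minus day 7 genotype difference then numbered 1 to 5 in endothelial cells and 0 to 1 in mesenchymal cells.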

Other observations

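Mesenchymal cells of the PBS library, 103 cells in all and too few per mouse for a test, gave library levels only. Tgfb1 was at 49.1 CPM there (exact 95% Poisson interval 28.6 to 78.7) and Tgfbr3 at 387 CPM (325 to 459). After LPS at day 7 the mesenchymal library level of Tgfb1 was 157 CPM in Itgb1 fl/fl and 114 CPM in Itgb1 iKO, and at day 21 it was 38.3 and 47.9 CPM. Tgfbr3 was at 148 and 230 CPM at day 7 and at 322 and 344 CPM at day 21. Ltbp4 was at 1376 CPM (1255 to 1506) and Smad7 at 37.6 CPM (20.0 to 64.3) in the PBS cells.

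Cells that met the gate of no class, or of more than 1, held all members too. Ltbp4 was at 272, 266, 449, 394 and 69.3 CPM in them for Itgb1 fl/fl LPS, Itgb1 iKO LPS and Itgb1 iKO PBS at day 7, and Itgb1 fl/fl and Itgb1 iKO at day 21. Tgfbr3 was at 68.4, 89.5, 210.0, 162 and 52.8 CPM in the same order.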
